A study of Danio rerio with 43 samples.

Results

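The genes described here are 371 abundant maternal transcripts of the zebrafish embryo whose relative level had fallen in wild-type embryos by the shield stage, called cleared here. They were chosen from 31877 gene entries by their level in wild-type libraries, as counts relative to the library total, scaled to a total of 1000000 (CPM). The mean had to be at least 50 CPM at the 1-cell, 256-cell and dome stages, which 2922 entries met, and at shield at most 25% of the dome mean, which left 371 of these, or 12.7%. Since wild-type levels at these 4 stages chose the genes, those levels are given as a description without a test. Symbols are written in lower case, and the 59 genes of the set whose symbol is carried by more than 1 entry are uncertain and are named only with their identifier.

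A zebrafish egg is loaded by the mother with transcripts that run the rapid cleavage divisions before the embryo's own genome is active. At the maternal-to-zygotic transition these transcripts are deadenylated and degraded, partly by factors of the egg itself and partly by products of the zygotic genome, such as the microRNA miR-430 in zebrafish. Rif1 controls the timing of DNA replication and acts with protein phosphatase 1 in several species. Whether the loss of Rif1 altered the levels of cleared transcripts was examined stage by stage.

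The libraries profiled polyadenylated RNA of pooled whole embryos with a QuantSeq kit, which sequences the 3′ end of each transcript. Wild-type embryos of the strain Tab5 were compared with embryos of the same strain homozygous for the rif1 allele omf201 (rif1 omf201/omf201). The parents' genotype was not given in the labels, so RNA loaded by the mother and the embryo's own RNA cannot be told apart by genotype. The stages were 1-cell (0 to 0.5 hours post fertilisation, hpf), 256-cell (2 to 2.5 hpf), dome (4 to 4.5 hpf, a blastula), shield (6 hpf, early gastrula), bud (10 hpf, end of gastrulation) and 24 hpf. Wild-type and mutant libraries numbered 4 and 3 at 1-cell, 3 and 3 at 256-cell, 4 and 3 at dome, 3 and 4 at shield, and 4 and 4 at bud and at 24 hpf.

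Totals of the 43 libraries ran from 5211421 to 14143931 counts, with a median of 7606729. The targeted gene rif1 had 61.2 to 352 CPM in the 22 wild-type libraries and 2.57 to 19.2 CPM in the 21 mutant libraries, without overlap. The labels do not say that replicates came from separate clutches, so p-values measure the spread between these libraries, which may be technical. The labels number the 1-cell libraries apart from the others, and a batch behind this cannot be told apart from the stage. In whole embryos, fewer cells of a type and less RNA per cell cannot be told apart, and in polyadenylated RNA a loss of transcripts and a shortening of their poly(A) tails cannot be told apart either.

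In wild type the members held 15.2% ± 0.881 of all counts at 1-cell (SD, n = 4), 13.8% ± 0.115 at 256-cell (n = 3), 7.91% ± 0.620 at dome (n = 4) and 1.39% ± 0.0979 at shield (n = 3). Mutant libraries gave 13.3% ± 0.571 (n = 3), 13.0% ± 0.120 (n = 3), 5.79% ± 0.129 (n = 3) and 1.09% ± 0.0450 (n = 4) at the same stages. The mutant share was thus lower at each of these stages, and the libraries of the genotypes did not overlap in it. Abundant members weigh most in this share, and wild-type levels at these stages chose the genes. The median CPM over members overlapped at 1-cell, at 167 to 179 in wild type and 166 to 173 in mutants. It did not overlap at 256-cell, dome or shield. At bud the shares were 0.921% ± 0.0186 in wild type and 0.902% ± 0.030 in mutants (n = 4 each), and at 24 hpf 1.17% ± 0.0175 and 1.16% ± 0.0445 (n = 4 each).

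Single members were highest in wild type at 256-cell in 180 cases, at 1-cell in 158 and at dome in 33. Their wild-type dome means ran from 50 to 3571 CPM with a median of 109 CPM. The wild-type shield level was 4.13% to 25% of the dome level, with a median of 18%, and the mutant median was 17.5%, with a range of 3.10% to 84.6%. All 371 members had a lower mean at shield than at dome in mutants too, and 262 of them met the limit of 25% there. The dome level was 63.4% of the 256-cell level in wild type and 45.4% in mutants, as medians over members, and the rule favoured a high wild-type dome level.

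**Figure D1:**
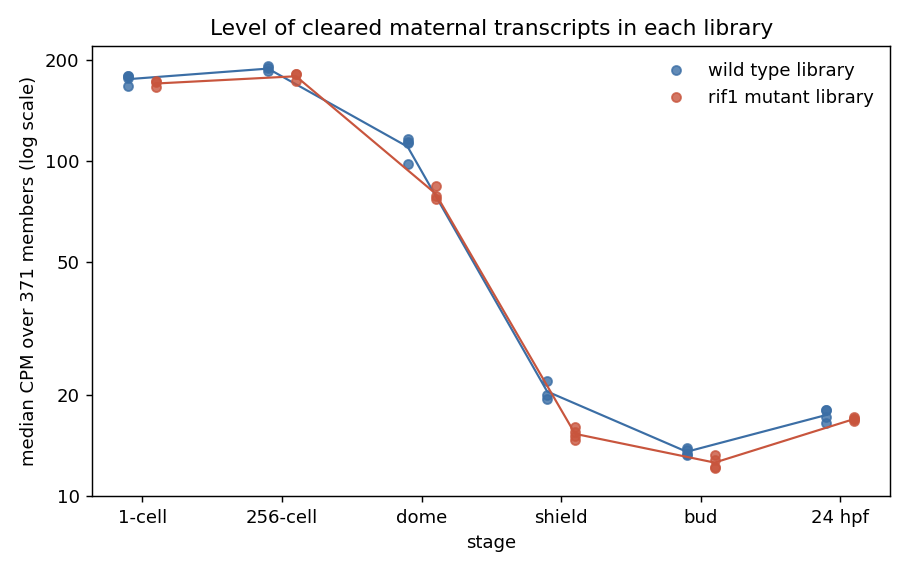
Median CPM over the 371 members (log scale) in each library, by stage, with wild type in blue and rif1 mutants in red; points are libraries and lines join the group means. At dome the wild-type libraries lie between 98.3 and 116 CPM and the mutant libraries between 77.1 and 84.4 CPM; at bud and 24 hpf the groups lie close together.

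Members with a shared symbol, such as slc16a3 (ENSDARG00000045051, 1392 CPM), were left out of the ranking by wild-type dome level. Among the others, the 10 most abundant were ccna1, hspa5, gmnn, pycr1b, cldnd, gtf2a1, rcor1, orc6, hsp90b1 and cldng. They span a cyclin, an enzyme of proline synthesis, endoplasmic reticulum chaperones, replication factors, transcription factors and claudins. All of them except gmnn were lower in mutants at dome by the test described next, with log2 fold changes from -0.89 (hsp90b1) to -0.25 (gtf2a1). The gtf2a1 call was lost in most alternative settings, as given in the closing section, and the pycr1b call in 1 fit of all 12 groups (adjusted p 0.162).

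At dome, 175 of the 371 members were lower in mutants and 5 were higher, by edgeR's quasi-likelihood test at a Benjamini-Hochberg adjusted p under 0.05 over all genes tested. Over all 11634 genes tested at dome, 8.59% were lower and 8.42% were higher. The members' median log2 fold change (mutant over wild type) was -0.46, against -0.03 over all genes, and 334 members, or 90.0%, had a negative value. In 202 members every mutant library lay below every wild-type library and in 7 every one lay above, against 15.4% and 12.3% of all genes tested. The change was mostly moderate: 32 of the 175 fell by 1 log2 unit or more, and none of the 5 rose by as much.

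The choice of genes bears on this comparison, because a gene measured high by chance in the wild-type dome libraries entered the set more readily. The same rule applied to the mutant libraries chose 324 genes, of which 204 were also in the wild-type set, 55.0% of the wild-type set and 63.0% of the mutant one. Of the 324, 93 were lower and 30 higher in mutants at dome, with a median of -0.25. Of the 204 that met the rule in both genotypes, 82 were lower and 4 higher, with a median of -0.35, and of the 120 that met it in mutants only, 11 were lower and 26 higher, with a median of 0.07. With one fit of all 12 groups in place of the dome libraries alone, 108 members were called, all lower.

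**Figure D2:**
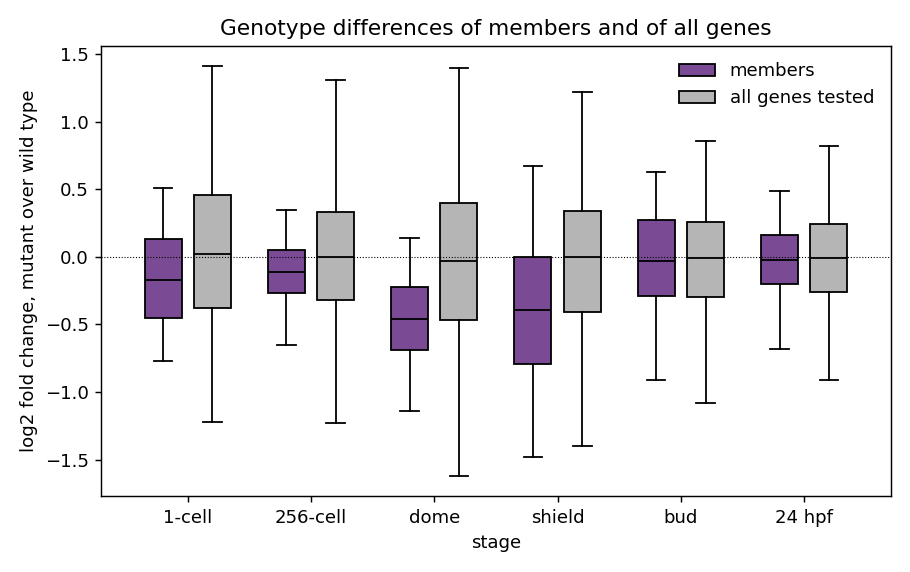
Log2 fold change, mutant over wild type, at each stage for the members (purple) and all genes tested (grey); boxes show the median and quartiles, whiskers the 5th and 95th percentiles. The members' median is -0.46 at dome and -0.39 at shield and lies within 0.03 of 0 at bud and 24 hpf.

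Other groups of genes moved at dome as well. Markers of the enveloping layer, the outer epithelium of the blastula, held no member; 10 of the 19 tested were higher in mutants and none lower, and their summed level was 1596 to 2172 CPM in wild type and 3454 to 3577 CPM in mutants. Early zygotic genes, also without a member, were higher in 11 and lower in 5 of 44 tested, and their summed level overlapped, at 4484 to 5266 CPM in wild type and 4678 to 4890 CPM in mutants. Of 12 ovarian follicle markers, 11 were at 0 in all dome libraries. The part of these groups in the members' difference was not tested.

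Germ plasm is the maternally supplied material that specifies the germ cells. The 6 members on the list of germ plasm genes, buc, ca15b, dazl, rgs14a, tdrd1 and tdrd7a, were all lower in mutants at dome, with a median log2 fold change of -0.72. At shield 3 of them were lower (buc, ca15b and tdrd7a), with a median of -1.0 over the 6. Of the germ plasm genes outside the set, none of 10 tested was called at dome, and at shield 1 was higher and 1 lower of 11 tested. Whether members and other germ plasm genes differ was not tested. Here and in each gene list below, the rule favoured lower mutant values of members at dome. Contrasts with genes outside the set therefore partly reflect the choice of members. Over all 371 members, 47.2% were lower and 1.35% higher at dome, and 15.1% lower and 2.43% higher at shield.

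Buc (ENSDARG00000096095) encodes Bucky ball, the organiser of the Balbiani body and of germ plasm in zebrafish. At dome it stood at 383, 558, 582 and 620 CPM in wild type and at 141, 151 and 181 CPM in mutants. Every mutant library lay below every wild-type library, and the log2 fold change was -1.73 (SE 0.14, adjusted p 9.68e-10, edgeR). At 256-cell the genotypes had means of 2380 ± 226 (n = 3) and 2577 ± 91.0 CPM (n = 3), and the libraries of the genotypes overlapped. At shield, buc was at 36.3, 39.5 and 41.0 CPM in wild type and at 15.1, 15.4, 16.4 and 30.5 CPM in mutants. All mutant libraries were lower, though 1 came close, and the log2 fold change was -0.96 (SE 0.27, adjusted p 0.0248). That shield call was lost, with adjusted p-values of 0.0635 to 0.0898, when any wild-type library or mutant replicate 3 or 4 was left out, and was 0.0532 in 1 fit of all groups.

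Ca15b (ENSDARG00000040510), a carbonic anhydrase whose transcript is localised to zebrafish germ plasm, was called lower at 256-cell, and differed little at dome and much at shield. At 256-cell it had means of 1315 ± 177 CPM in wild type and 720 ± 37.1 CPM in mutants (n = 3 each). That call was lost in 1 fit of all groups (adjusted p 0.109). Its dome values were 190, 298, 312 and 338 CPM in wild type and 186, 206 and 216 CPM in mutants, which overlap (log2 fold change -0.45, SE 0.14, adjusted p 0.0302, edgeR). This dome call was lost in 1 fit of all groups (adjusted p 0.379) and with 5 of the 7 libraries left out singly. At shield ca15b stood at 51.8, 61.7 and 69.7 CPM in wild type and 15.2, 17.7, 18 and 27.1 CPM in mutants. The groups were well apart there, with a log2 fold change of -1.59 (SE 0.23, adjusted p 4.76e-05). It was also called lower at 24 hpf, at low means of 3.59 CPM in wild type and 0.446 CPM in mutants. That call was lost with DESeq2 (adjusted p 0.167) and without wild-type replicate 2 or mutant replicate 1, 2 or 3 (0.0621 to 0.239).

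Dazl (ENSDARG00000036214), an RNA-binding protein of germ cells, was measured at dome at 86.3, 98.1, 101 and 124 CPM in wild type and at 46.9, 49.7 and 56.4 CPM in mutants. The groups did not overlap (log2 fold change -0.96, SE 0.17, adjusted p 0.000239, edgeR), but at shield the difference was -0.23 (SE 0.29) and not past the threshold. Tdrd7a (ENSDARG00000032808), a tudor domain protein of germ granules, was at 147, 175, 194 and 198 CPM in wild type and 120, 121 and 144 CPM in mutants at dome (log2 fold change -0.43, SE 0.14, adjusted p 0.0266). At shield it was at 39.9, 43.2 and 46.9 CPM against 16.5, 18.5, 20.6 and 25.2 CPM. The mutant libraries were lower at both stages, by -1.05 on the log2 scale at shield (SE 0.23, adjusted p 0.00476). The dome calls of tdrd7a and tdrd1 were lost in 1 fit of all groups (adjusted p 0.136 and 0.189) and with some libraries left out, and that of dazl in the fit of all groups (adjusted p 0.0629).

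**Figure D3:**
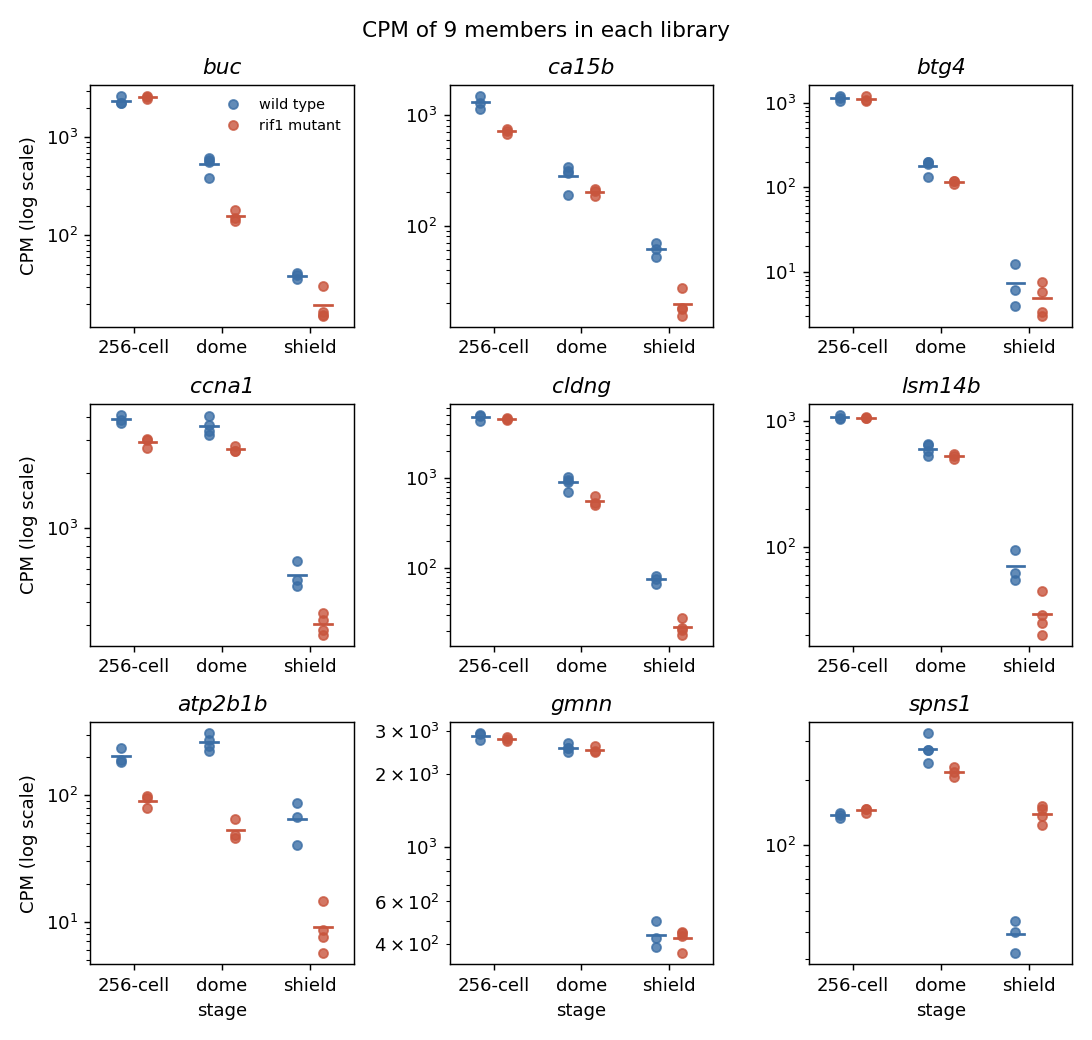
CPM (log scale) of 9 members in each library at 256-cell, dome and shield, wild type in blue and rif1 mutants in red; points are libraries and bars are group means. The mutant points lie below the wild-type points of buc at dome and of ca15b, cldng and ccna1 at shield, overlap for gmnn at each stage, and lie above them for spns1 at shield.

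Of the 13 members on the list of oocyte and egg genes, 7 were lower in mutants at dome and 7 at shield, and none was higher. Of all members, 47.2% were lower at dome and 15.1% at shield, and 1.35% and 2.43% were higher. Outside the set, 4 of 25 such genes were lower and 1 higher at dome, and 3 of 24 were lower and 1 higher at shield. Several germ plasm genes also stand on this list. Wee2, an oocyte kinase that inhibits Cdk1, and birc5b, a maternal survivin of the chromosomal passenger complex, differed by -0.08 and -0.05 log2 units at dome. At shield both were lower, by -1.0 (adjusted p 0.00686, edgeR) and -0.88 (adjusted p 0.0197). The birc5b call was lost with wild-type replicate 1 or 3 left out (adjusted p 0.124 and 0.0993) and in 1 fit of all groups (0.0933). Org, an oogenesis-related transcript, was lower at 1-cell, where it stood at 11821, 11939, 13359 and 17083 CPM in wild type and at 6730, 7892 and 8496 CPM in mutants. These did not overlap (log2 fold change -0.90, SE 0.20, adjusted p 0.0124), but the call was lost without mutant replicate 1 (adjusted p 0.079) or in the fit of all groups (0.0767). At 256-cell org was instead called higher in mutants, with means of 3508 ± 162 CPM against 2699 ± 274 CPM in wild type (n = 3 each). That call was lost without wild-type replicate 3 (adjusted p 0.0641) or in the fit of all groups (0.801).

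Zglp1 (ENSDARG00000067669), a GATA-like zinc finger protein of germ cells in the mouse, was measured at dome at 110, 125, 154 and 166 CPM in wild type and at 48.4, 52.1 and 64.3 CPM in mutants. The groups were separate and the log2 fold change was -1.30 (SE 0.17, adjusted p 4.23e-06, edgeR).

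The members also include some genes that store and degrade maternal RNA, namely 6 of the 59 matched by symbol from a list of 76. Of these 6 members, 2 were lower at dome (btg4 and cnot6b) and 3 at shield (lsm14b, pabpn1l and patl2). None was higher at either stage, and ythdf3 was not called. Of the genes of this list outside the set, 9 were higher and 6 lower of 47 tested at dome, and 2 were higher and 5 lower of 45 at shield. Their summed level was 16088 to 17124 CPM in wild type and 16025 to 16530 CPM in mutants at dome, which overlap.

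Btg4 (ENSDARG00000035171) recruits the CCR4-NOT deadenylase and is needed for maternal mRNA decay in the mouse. At dome it stood at 134, 188, 199 and 201 CPM in wild type and at 110, 120 and 120 CPM in mutants, without overlap (log2 fold change -0.59, SE 0.14, adjusted p 0.00454, edgeR), although 1 fit of all groups gave an adjusted p of 0.195. By shield it was nearly gone, at 3.94, 6.17 and 12.3 CPM in wild type and 3.01, 3.31, 5.81 and 7.67 CPM in mutants, from 19 to 95 counts. The groups overlapped, and a difference of -0.54 (SE 0.57, adjusted p 0.658) was not resolved at this depth. Cnot6b, a deadenylase subunit, differed by -1.34 (SE 0.31, adjusted p 0.00515) at dome and by -0.25 (SE 0.49) at shield.

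Lsm14b, pabpn1l and patl2 were called at shield and not at dome. Pabpn1l, an oocyte poly(A)-binding protein that acts with Btg4 in the mouse, overlapped at dome, with 637, 673, 692 and 695 CPM in wild type and 638, 649 and 649 CPM in mutants (log2 fold change -0.02, SE 0.09). At shield it was at 85.3, 96.3 and 116 CPM against 56.7, 57.8, 60.3 and 62 CPM, and the groups had parted (log2 fold change -0.69, SE 0.15, adjusted p 0.00506, edgeR). Lsm14b, a component of stored ribonucleoprotein particles in the oocyte, was at 54.1, 61.5 and 94.4 CPM in wild type at shield and at 20.1, 24.6, 28.9 and 44.3 CPM in mutants. Every mutant library was lower, with a log2 fold change of -1.20 (SE 0.25, adjusted p 0.00257).

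Patl2, a translational repressor of the oocyte in mammals, stood at 16.7, 21.8 and 24.6 CPM in wild type at shield and at 5.01, 5.86, 12.2 and 12.4 CPM in mutants. The log2 fold change was -1.19 (SE 0.37, adjusted p 0.0412, edgeR) on 32 to 187 counts a library, without overlap. The patl2 call was lost with each of 5 libraries left out (adjusted p 0.0696 to 0.193), and the pabpn1l call without wild-type replicate 4 (adjusted p 0.0698).

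Members on the list of cell cycle regulators were ccna1, wee2, birc5b and espl1. Ccna1 and espl1 were lower at dome, and at shield 3 were lower and espl1 was higher. Outside the set, 10 cell cycle genes were higher and 2 lower of 48 at dome, and 3 were higher and 3 lower of 46 at shield.

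Ccna1 (ENSDARG00000043236), the cyclin A of meiosis and early cleavage, was the most abundant member at dome. It was measured there at 3202, 3376, 3635 and 4072 CPM in wild type and at 2619, 2631 and 2769 CPM in mutants. All mutant libraries were lower (log2 fold change -0.38, SE 0.08, adjusted p 0.00196, edgeR), though not past the threshold in 1 fit of all groups (adjusted p 0.398). At shield it stood at 485, 522 and 661 CPM against 265, 279, 318 and 345 CPM, again without overlap (log2 fold change -0.83, SE 0.12, adjusted p 3.61e-05). Ccna1 was also lower at 1-cell, at 10800, 12399, 12492 and 17701 CPM in wild type and 7984, 8426 and 10047 CPM in mutants. That difference of -0.69 (SE 0.21, adjusted p 0.0489) lay at the threshold and was lost with most libraries left out (adjusted p up to 0.172).

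Espl1, the protease separase that opens the cohesin ring at anaphase, was at 32.5, 42.6 and 47.9 CPM in wild type at shield and at 84.5, 90.2, 93.3 and 107 CPM in mutants. It was higher in every mutant library (log2 fold change 1.25, SE 0.17, adjusted p 3.32e-05, edgeR), after a lower dome level (-0.46, SE 0.14, adjusted p 0.0193). The dome call was lost in 1 fit of all groups (adjusted p 0.249) and with 3 libraries left out singly. Espl1 was also called higher in mutants at 1-cell (means 119 against 55.3 CPM) and 24 hpf (35.6 against 20.2 CPM). At 256-cell it was called lower (192 against 245 CPM). The 1-cell call was lost without mutant replicate 1 or 2 (adjusted p 0.0539 and 0.0760). The 256-cell and 24 hpf calls were lost in 1 fit of all groups (0.580 and 0.0634), and that at 256-cell also without wild-type replicate 2 or mutant replicate 3.

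Members on the list of replication genes were gmnn, orc6, slbp2 and orc2. The list is not complete, and the member tipin, given below, is not on it. Orc6 and slbp2 were lower at dome, and none of the 4 was called at shield. Outside the set, 8 were higher and 4 lower of 48 at dome, and 2 were higher and 3 lower of 48 at shield.

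Orc6, a subunit of the origin recognition complex, stood at dome at 946, 1221, 1266 and 1278 CPM in wild type and at 796, 798 and 865 CPM in mutants. The groups were apart (log2 fold change -0.48, SE 0.10, adjusted p 0.000937, edgeR). Slbp2, an oocyte histone mRNA-binding protein, was at 67.7, 80.9, 101 and 111 CPM against 47.2, 59.4 and 62.1 CPM (log2 fold change -0.63, SE 0.19, adjusted p 0.0214), a call that was lost with 3 libraries left out singly and in 1 fit of all groups (adjusted p 0.151).

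Gmnn (ENSDARG00000035957), geminin, which restrains origin licensing, did not differ past the threshold at either stage. Its dome values were 2465, 2546, 2566 and 2685 CPM in wild type and 2457, 2477 and 2597 CPM in mutants. At shield they were 390, 426 and 497 CPM in wild type and 368, 433, 445 and 450 CPM in mutants. The genotypes overlapped at both stages, with log2 fold changes of 0.01 (SE 0.08) and 0.01 (SE 0.10). At bud it was at 175, 177, 199 and 232 CPM in wild type and at 240, 254, 258 and 261 CPM in mutants. The mutants were higher there (log2 fold change 0.42, SE 0.11, adjusted p 0.0316, edgeR), but leaving out 5 of the 8 libraries singly ended the call (adjusted p up to 0.134).

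Of the maternal list of chromatin and transcription regulators, 40 of 69 genes were matched by symbol. Among these were 3 members, smad2, dnmt1 and cbx3b, and all were lower at dome. The members eomes and dnmt3b carry symbols that the list does not hold and were not counted. Outside the set, 11 such genes were higher and none was lower of 32 at dome, where the rule favoured lower mutant values of members. At shield dnmt1 was higher and the other two were not called. Smad2, an effector of Nodal signalling, differed by -0.69 (SE 0.15, adjusted p 0.00182, edgeR) and cbx3b, a heterochromatin protein of the HP1 family, by -0.80 (SE 0.22, adjusted p 0.0125). The cbx3b call was lost without wild-type replicate 4 (adjusted p 0.0578) or mutant replicate 2 (0.0747).

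Dnmt1, the maintenance DNA methyltransferase, changed direction between stages. At 256-cell it stood at 640, 673 and 790 CPM in wild type and at 289, 376 and 399 CPM in mutants (log2 fold change -1.03, SE 0.11, adjusted p 4.72e-07, edgeR). At shield it stood at 25, 27.7 and 29.4 CPM against 38, 41.0, 45.7 and 52.5 CPM. All mutant libraries were lower at 256-cell and all were higher at shield (log2 fold change 0.75, SE 0.21, adjusted p 0.0263), although the shield call was lost when any wild-type library or mutant replicate 3 was left out.

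Dnmt3b, of the de novo methyltransferase family, went the other way early on. It stood at 39.3, 55.5 and 71.3 CPM in wild type at 256-cell and at 152, 156 and 163 CPM in mutants (log2 fold change 1.46, SE 0.17, adjusted p 1.4e-06, edgeR). At dome it stood at 83.1, 117, 119 and 127 CPM against 43.1, 64.0 and 77.9 CPM, so that all mutant libraries were now lower (log2 fold change -0.82, SE 0.19, adjusted p 0.00338). At shield it stood at 18.8, 19.2 and 26.2 CPM in wild type and at 27.4, 30.1, 44.2 and 51.5 CPM in mutants. The mutants were higher again (log2 fold change 0.89, SE 0.26, adjusted p 0.0338), as at 1-cell (1.00, SE 0.21, adjusted p 0.00809), but the shield call was lost without wild-type replicate 1 or 3 or mutant replicate 2 or 4 (adjusted p 0.0981 to 0.140).

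Rcor1 encodes CoREST, a corepressor that binds histone demethylase and deacetylase. At dome it was at 1230, 1312, 1325 and 1644 CPM in wild type and at 753, 776 and 871 CPM in mutants, without overlap (log2 fold change -0.74, SE 0.10, adjusted p 4.96e-06, edgeR).

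The 2 members on the list of adhesion and cortex genes were both claudins, which form tight junctions, and both were lower at dome and at shield. The list does not hold every adhesion gene of the set. Nectin3b, a member not on it, had means of 352 CPM in wild type and 413 CPM in mutants at dome. At shield its means were 47.7 and 58.2 CPM. Of the adhesion and cortex genes outside the set, 12 were higher and 2 lower of 30 at dome, and 6 were higher and 6 lower of 30 at shield. Cldng (ENSDARG00000003701) stood at dome at 699, 896, 958 and 1025 CPM in wild type and at 497, 522 and 627 CPM in mutants (log2 fold change -0.67, SE 0.11, adjusted p 8.34e-05, edgeR). At shield it stood at 66.3, 75.3 and 81.6 CPM against 18.1, 20.6, 21.3 and 27.6 CPM. The genotypes were apart at both stages and farther apart at shield, with a log2 fold change of -1.71 (SE 0.20, adjusted p 4.18e-06).

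Cldnd was at 1565, 1986, 2006 and 2133 CPM in wild type at dome and at 1244, 1336 and 1466 CPM in mutants (log2 fold change -0.47, SE 0.10, adjusted p 0.000933, edgeR). At shield it was at 175, 217 and 242 CPM against 72.1, 91.8, 118 and 131 CPM (log2 fold change -0.98, SE 0.16, adjusted p 0.000322). At 1-cell the groups overlapped, with 6595, 8263, 8403 and 9114 CPM in wild type and 4897, 4970 and 7886 CPM in mutants. The dome calls of cldng and cldnd were lost in 1 fit of all groups (adjusted p 0.156 and 0.431), as was the shield call of cldnd (0.0672).

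The largest falls at dome that met the naming rule were those of atp2b1b, buc, rbm33b, klhdc10, vps9d1, ercc4, cry4 and zglp1, from -2.27 to -1.30 log2 units. Atp2b1b (ENSDARG00000007788), a plasma membrane calcium pump, was low in mutants from 256-cell to shield. At 256-cell it stood at 78.8, 96.0 and 98.0 CPM against 185, 189 and 236 CPM in wild type (log2 fold change -1.20, SE 0.14, adjusted p 1.02e-06, edgeR). At dome the wild-type libraries had 225, 245, 275 and 310 CPM and the mutant libraries 45.6, 49.0 and 65.0 CPM (log2 fold change -2.27, SE 0.15, adjusted p 2.18e-11). At shield it stood at 40.7, 67.3 and 86.4 CPM against 5.63, 7.62, 8.57 and 14.7 CPM, again without overlap (log2 fold change -2.77, SE 0.30, adjusted p 1e-06). Ercc4, the XPF nuclease of nucleotide excision repair, was at 62.6, 64.5, 66.0 and 78.2 CPM in wild type and 17.8, 29.4 and 31.1 CPM in mutants at dome. Its log2 fold change was -1.34 (SE 0.23, adjusted p 0.000118).

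Hspa5, the chaperone BiP, was at 2737, 2985, 3220 and 3463 CPM in wild type at dome and at 1971, 2059 and 2293 CPM in mutants (log2 fold change -0.52, SE 0.09, adjusted p 8.31e-05, edgeR). Hsp90b1, its partner Grp94, was at 930, 1004, 1006 and 1239 CPM against 526, 548 and 569 CPM (log2 fold change -0.89, SE 0.10, adjusted p 3.12e-07). Both were lower in every mutant library. Calr3a, a calreticulin, was higher in mutants, at 404, 454, 465 and 481 CPM in wild type and 510, 562 and 635 CPM in mutants at dome (log2 fold change 0.37, SE 0.10, adjusted p 0.00994). At shield calr3a was at 104, 114 and 120 CPM against 159, 169, 180 and 188 CPM, and the mutants were higher again (log2 fold change 0.68, SE 0.12, adjusted p 0.000527). The dome call of calr3a was lost without mutant replicate 2 (adjusted p 0.0999) and in 1 fit of all groups (0.0637).

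At shield, 56 of the 371 members were lower in mutants and 9 were higher, where 5.05% of all 10751 genes tested were lower and 4.66% higher. The members' median log2 fold change was -0.39 against 0.00 over all genes, and 276 members, or 74.4%, had a negative value. Every mutant library lay below every wild-type library in 110 members and above in 20, against 13.7% and 8.60% of all genes. Of the 56 that fell, 35 did so by 1 log2 unit or more. The choice of genes bears on this too, since a gene measured low by chance in wild type at shield entered the set more readily. The rule on mutant libraries favours low mutant levels at shield in the same way, and its 324 genes had 97 lower and none higher there, with a median of -0.63. Of the 204 genes that met the rule in both genotypes, 52 were lower and none higher at shield, and of the 167 that met it in wild type only, 4 were lower and 9 higher, with a median of -0.12. Leaving out wild-type replicate 1, 3 or 4 lowered the number of called members from 65 to 42, 42 and 34, while 1 fit of all 12 groups gave 108.

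Of the 175 members lower at dome, 28 were lower at shield, 142 were not called and 5 were higher. The 28 are 16.0% of the 175, and over all genes tested at both stages 17.4% of those lower at dome were lower at shield. The 5 are 2.86% of the 175, against 3.12% over all genes lower at dome. A further 28 members were lower at shield without a call at dome, and 160 were called at neither stage. These 28 are 14.3% of the 196 members not lower at dome, against 4.20% over all genes not lower at dome. Markers of the enveloping layer were higher in mutants at shield as well, in 9 of 23 tested with none lower, and their summed level was 8601 to 8766 CPM in wild type and 10467 to 10818 CPM in mutants. Early zygotic genes were higher in 2 and lower in 3 of 47. Ovarian follicle markers, 10 of 12 of which were at 0 in all shield libraries of wild type and 10 of 12 in those of mutants, summed to 0.777 to 3.30 CPM in wild type and 18.3 to 24.1 CPM in mutants, and 1 of the 2 tested was higher. The part of these in the members' difference was not tested.

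Beside atp2b1b, ca15b and cldng, the largest falls at shield that met the naming rule were those of mt1x, mid1ip1l, otud4, map1lc3c and ripor2, from -2.04 to -1.54 log2 units. Over all members the lowest value at shield was -3.02. Mid1ip1l (ENSDARG00000018145) is a maternal factor of the cleavage cytoskeleton and of germ plasm aggregation in zebrafish. It was low in mutants from 256-cell to shield. At 256-cell it stood at 877, 1009 and 1035 CPM against 2212, 2413 and 2956 CPM in wild type (log2 fold change -1.42, SE 0.10, adjusted p 2.1e-10, edgeR). At dome it stood at 285, 317 and 403 CPM in mutants and 666, 755, 800 and 990 CPM in wild type (log2 fold change -1.21, SE 0.13, adjusted p 1.11e-07). At shield it stood at 23.8, 26.1, 31.9 and 49.3 CPM against 113, 123 and 133 CPM. No libraries of the genotypes overlapped at any of these stages, and the shield difference was -1.86 (SE 0.20, adjusted p 9.46e-07).

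Mt1x, a metallothionein that binds zinc and copper, stood at shield at 100, 100 and 106 CPM in wild type and at 18, 18.9, 23.4 and 35.4 CPM in mutants (log2 fold change -2.04, SE 0.21, adjusted p 4.62e-07, edgeR). At bud it stood at 28.5, 43.9, 44.4 and 57.4 CPM against 9.71, 10.5, 10.7 and 13.2 CPM. The mutants were lower in every library at both stages, by -1.93 on the log2 scale at bud (SE 0.24, adjusted p 1.3e-05). Ripor2, at 18 to 102 counts a library at shield, had an adjusted p of 0.0412 there and lost its call with most libraries left out (adjusted p up to 0.179).

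The largest rise at shield by the naming rule was that of spns1 (ENSDARG00000011925), a lysosomal lipid transporter of the spinster family. It stood at 31.8, 40 and 44.8 CPM in wild type and at 124, 136, 146 and 152 CPM in mutants (log2 fold change 1.90, SE 0.16, adjusted p 1.78e-08, edgeR). At bud it was at 17.5, 25.4, 25.7 and 34.8 CPM against 45.6, 45.9, 50 and 59.6 CPM (log2 fold change 1.00, SE 0.20, adjusted p 0.00347). At 24 hpf it was at 42.5, 66.4, 68.1 and 86.2 CPM against 100, 122, 131 and 133 CPM. The mutants were higher in every library at all 3 stages, by 0.94 at 24 hpf (SE 0.14, adjusted p 5.61e-05). Earlier, spns1 had lower means in mutants, at 79.2 against 113 CPM at 1-cell and 217 against 278 CPM at dome. It was called lower at 1-cell, a call lost without wild-type replicate 1, 2 or 4 or mutant replicate 1 or 3 (adjusted p 0.0612 to 0.154, edgeR).

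Members differed in what followed shield in wild type, and a division by this was made after the values were seen and is given without a test. In wild type, 68 members, btg4, buc, lsm14b, pabpn1l, patl2, wee2, zglp1 and cth1 among them, had means under 5 CPM at bud and at 24 hpf. A further 186, such as hspa5, rcor1, calr3a and spns1, stood at or above their shield level at bud or 24 hpf, and 117 did neither. The wild-type shield level was part of this division. A gene measured low there by chance joined the 186 more readily, with a less negative difference at shield. At dome the 3 groups had similar medians, -0.48, -0.47 and -0.46. At shield 24 of the 68 were lower and none higher, with a median of -0.84 and a negative value in 64. Of the 186, 7 were lower and 7 higher at shield, with a median of -0.23, and of the 117, 25 were lower and 2 higher, with a median of -0.40. The median level of the 68 at shield was 16.7 to 17.7 CPM in wild-type libraries and 8.16 to 10.8 CPM in mutant libraries. For the 186 it was 16.3 to 17.9 CPM and 14.1 to 15.1 CPM.

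**Figure D4:**
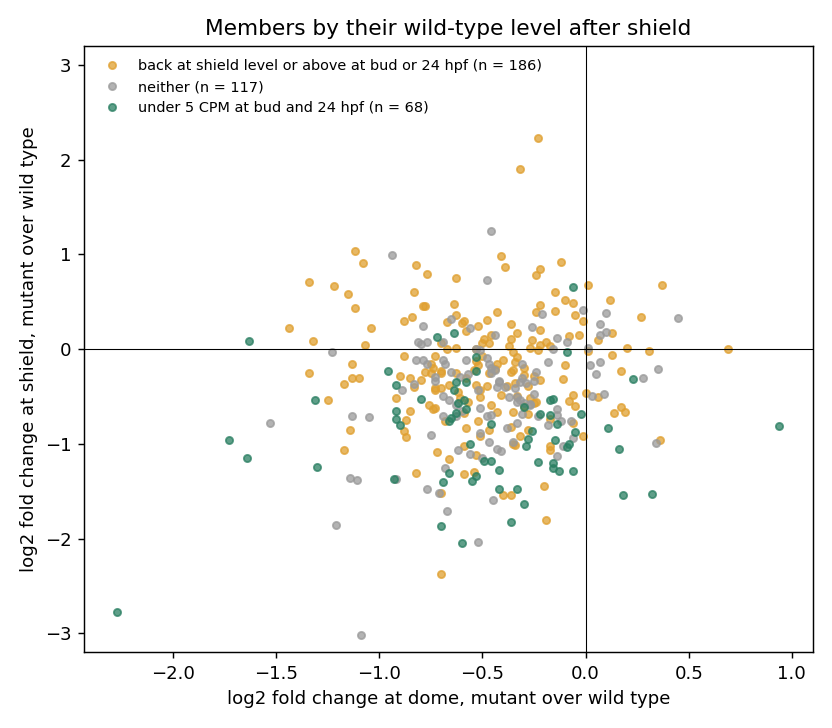
Log2 fold change, mutant over wild type, at dome (horizontal) and at shield (vertical) for the 371 members, each point a gene, coloured by its wild-type level after shield. The 68 members under 5 CPM at bud and 24 hpf (green) lie mostly below 0 at shield, while the 186 at or above their shield level later (yellow) spread on both sides; at dome the colours cover a similar range.

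Mutant libraries were not used by the rule, so that the decline within mutants could be tested. The rule required a fall from dome to shield in wild type, so the comparison with all genes at that step partly reflects this choice. From 256-cell to dome, 258 of the 371 members fell in mutants and 29 rose, where 24.5% of all 11385 genes fell and 25.6% rose, and the median change was -0.87 log2 units against -0.05 over all genes. From dome to shield, 357 fell and none rose, where 23.7% of all 11174 genes fell and 23.6% rose, and 342 of the 357 fell by 1 log2 unit or more. The median change was -2.10 against -0.09 over all genes. Relative to library totals alone, without TMM scaling, the median of all genes was -0.32 and -0.50 in the 2 steps and that of the members -1.14 and -2.51. The strongest declines from dome to shield in mutants by the naming rule were those of fyn (-4.60), uckl1b (-4.24) and cldng (-4.24). The members least reduced were pdia4 (0.11), vps9d1 (-0.10) and spns1 (-0.23), which did not pass the test. The value of pdia4 is positive with TMM scaling, although its mean CPM was lower at shield than at dome.

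The genotype effect itself was compared between dome and 256-cell, as an interaction of genotype and stage in edgeR. It was more negative at dome in 74 members and more positive in 11, where 3.89% and 3.05% of all 13034 genes tested were, and the members' median was -0.32 against -0.06. Wild-type libraries of both stages were also used by the rule, so this direction was favoured by the choice of genes.

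At the 1-cell stage, 38 members were lower and 18 higher in mutants, where 5.03% and 5.14% of all 12109 genes were, with a median of -0.17 against 0.02. At 256-cell 64 were lower and 18 higher, where 6.71% and 6.75% of all 11137 genes were, with a median of -0.11 against -0.00. Wild-type libraries of both stages were also used by the rule, so lower values in mutants were favoured by the choice of genes. These counts depended on single libraries. Of the 56 calls at 1-cell, 18 were left without mutant replicate 1 and 30 to 33 without wild-type replicate 1, 2 or 4, while DESeq2 gave 86, and relative to library totals 29 were lower and 23 higher. The 82 calls at 256-cell became 54 without mutant replicate 2 and 18 in 1 fit of all 12 groups. The falls named at 1-cell were tmem192, a lysosomal membrane protein (-1.21, adjusted p 0.00936, edgeR), and st8sia7.1, a sialyltransferase (-1.02, adjusted p 0.00556). The rise named there was that of espl1, given above. The tmem192 call was lost without mutant replicate 1 (adjusted p 0.0576) and the st8sia7.1 call in 1 fit of all groups (0.0501).

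After shield few differences were found. At bud, 6 members were lower and 8 higher of 341 tested, where 3.09% and 2.41% of all 10605 genes were, and at 24 hpf 10 were lower and 10 higher of 339, where 4.29% and 4.35% of all 12536 genes were. The medians were -0.03 and -0.02. The 14 calls at bud were 6 to 9 without wild-type replicate 1 or 4 or mutant replicate 2 or 3, and 31 in 1 fit of all 12 groups, and relative to library totals 7 were lower and 5 higher. The 20 calls at 24 hpf were 13 in that fit. Plpp5, a lipid phosphatase, was lower at bud (-1.15, adjusted p 0.000968, edgeR), and mettl4, a methyltransferase, was higher (1.24, adjusted p 0.0449), a call that was lost with 5 libraries left out singly.

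Cry3b, of the cryptochrome family, was higher at 24 hpf, at 1.14, 1.67, 1.76 and 2.97 CPM in wild type and at 6.30, 6.53, 6.90 and 9.56 CPM in mutants. Every mutant library was higher, at low levels (log2 fold change 2.01, SE 0.41, adjusted p 0.00075, edgeR). Hspa5 was at 627, 642, 653 and 686 CPM in wild type at 24 hpf and at 692, 701, 770 and 781 CPM in mutants. It was higher there (log2 fold change 0.24, SE 0.07, adjusted p 0.0303), though not with most single libraries left out (adjusted p up to 0.101), and so stood opposite to its dome difference.

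Over the 6 stages, 111 members (29.9%) were called at none, against 69.0% of the 16390 genes tested at any stage. Members lower at 3 or more stages numbered 18 (4.85%, against 1.17% of all genes), those higher at 3 or more numbered 4 (1.08% against 1.03%), and 30 (8.09% against 3.28%) were called in both directions. At single stages 10605 to 12536 of the 16390 genes were tested, and 339 to 371 of the members. The number of tests per gene and the abundance required by the rule bear on these contrasts, and their part was not tested. By the naming rule, which leaves out shared symbols and clone names, the members called most often in 1 direction were ca15b, mt1x, ccna1, fhdc3 and syvn1. Syvn1, a ubiquitin ligase of the endoplasmic reticulum, was lower by -0.63 at 1-cell, -0.37 at 256-cell, -0.46 at dome and -0.70 at shield (adjusted p 0.0217, 0.0046, 0.000861 and 0.00136, edgeR). The 1-cell call of syvn1 was lost without wild-type replicate 1 or 2 or mutant replicate 1, and its 256-cell call in 1 fit of all groups (adjusted p 0.0998). The calls of fhdc3 at 1-cell, 256-cell and dome were lost with 5, 4 and 5 libraries left out singly (adjusted p up to 0.139, 0.132 and 0.164) and in 1 fit of all 12 groups (0.303, 0.816 and 0.451), and at shield without wild-type replicate 4 (0.158).

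One further entry was singled out after its values were seen. An entry that carries the symbol phb2 (ENSDARG00000045297), a mitochondrial prohibitin, shares that symbol with another entry and is uncertain. It stood at 111, 125 and 147 CPM in wild type at 256-cell and at 1.37, 2.53 and 2.69 CPM in mutants, but at dome at 55.1, 85.1, 91.2 and 95 CPM against 52.1, 58.9 and 74.3 CPM. The mutants were far lower at 256-cell (log2 fold change -5.86, SE 0.25), whereas the groups overlapped at dome (-0.36, SE 0.19, adjusted p 0.22, edgeR). At bud it was at 44.5, 45.8, 52.3 and 61.7 CPM in wild type and at 0.213, 2.42, 3.96 and 4.18 CPM in mutants, without overlap. It was also lower in mutants at the other stages, with log2 fold changes of -1.50 at 1-cell (SE 0.24), -1.54 at shield (SE 0.40) and -1.56 at 24 hpf (SE 0.18). Their adjusted p-values were 0.0016, 0.0145 and 1.59e-05 in edgeR, and dome was the 1 stage without a call.

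The RefSeq gene table of assembly GRCz12tu placed 337 of the 371 members on a chromosome. Of these, 6 lay on the chromosome of rif1 (1.78%), against 719 of 19638 placed entries (3.66%), and none of the 154 placed members that were lower at dome or the 50 lower at shield did.

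Near the limits of the rule, the members with the shield level closest to 25% of dome were otud4 (24.9%), calr3a (24.9%) and tipin, and the genes just outside were prpsap2, rab18 and lmx1a. Tipin, a replication fork protection factor, had 522 CPM at dome and 130 CPM at shield in wild type, and 532 and 114 CPM in mutants. Rab18, just outside, had 158 and 39.5 CPM in wild type and 95 and 36.7 CPM in mutants. The members with the lowest wild-type dome level were evl (50 CPM), clec16a (50.3 CPM) and samm50 (51.7 CPM).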

How the data were processed

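Pools of whole embryos were profiled with a QuantSeq 3′ kit and sequenced on a NextSeq 500, per the labels. The authors deposited raw counts per gene, in whole numbers, for all 43 libraries. STAR, HTSeq and GRCz11 appear in the submitters' processing notes, and versions, annotation, use of strand and molecular identifiers are not given in the sources used here. Overlapping, antisense and near-identical genes may therefore share reads, and counting error is the only error that depth describes. CPM was computed from library totals. Tests used R 4.3.3 with edgeR 4.0.16 (robust quasi-likelihood fit, TMM scaling, filterByExpr, two-sided, the libraries of the groups compared), and DESeq2 1.42.0 as an alternative. Called means a Benjamini-Hochberg adjusted p under 0.05 over all genes tested. Standard errors were derived from the fold change and the F statistic. The fits were tested on simulated data.

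The members and gene lists were chosen with earlier results of these data known, and the lists were written from general knowledge. Listed genes were matched by symbol, and those without a match or with a shared symbol were left out. Counts of members on a list may therefore be incomplete. Named genes are those with a symbol carried by 1 entry that is not a clone name, of which 285 were members. They comprise the 10 most abundant at dome, the largest changes per stage of at least 1 log2 unit without overlap of libraries and with at least 5 CPM in the higher group (8 falls and 5 rises at dome and shield, 3 of each elsewhere), the 4 most abundant of each list, the 5 called at the most stages, the 3 on each side of the limits, and the 3 least and most reduced in mutants. Symbols came from a table that named 28877 of the 31877 entries. None of 57 replicate pairs matched within sampling noise (lowest chi-square per gene 7.60, over genes with 20 or more counts). Alternatives were RLE size factors, library totals, no filter, DESeq2, 1 fit of all 12 groups, a replicate block, each library left out in turn and other limits of the rule. The set met in both genotypes and the limit of 5 CPM after shield were added after seeing the data.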

Additional observations from a re-analysis of the deposited data

Results flagged for a closer look

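In mutant shield replicate 2, buc stood apart from the other mutant shield libraries, at 30.5 CPM. The median CPM of members in wild-type dome replicate 2 was 98.3, apart from the other wild-type dome libraries. These were 2 of 68 groups examined for a library that stands apart, and chance alone gives about 1 in 20.

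For 21 of 58 named members the genotype effect at dome differed from that at 256-cell, by the interaction test in edgeR (adjusted p under 0.05), and 19 of these were more negative at dome. Over all genes tested 3.89% were more negative and 3.05% more positive. Some of the 58 were named for large changes at dome or 256-cell, and the rule used wild-type libraries of both stages, so the count is a description. The change in the genotype effect on the log2 scale was -2.30 for rbm33b, -2.27 for dnmt3b, -1.79 for buc, -1.37 for vps9d1, -1.23 for ercc4 and -1.22 for zglp1. It was -1.14 for pdia4, -1.11 for dazl, -1.06 for atp2b1b, -1.02 for klhdc10 and -0.96 for clec16a. Smaller changes were -0.83 for slbp2, -0.70 for smad2, -0.59 for org, -0.57 for rcor1, -0.56 for cldng, -0.52 for btg4, -0.51 for st8sia7.1 and -0.48 for cldnd. The effect was more positive at dome for fyn, by 0.71, and for tmem192, by 0.65.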

How the results depend on the processing

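Of 216 calls of named members, recomputed in 2748 values, 2482 kept their direction and their side of the threshold, 264 kept only the direction and 2 reversed, which were the rises of syvn1 (-0.02) and calr3a (-0.01) from 256-cell to dome in mutants, relative to library totals. None of the 676 values for the decline from dome to shield in mutants lost its call. The gtf2a1 call at dome was lost without a filter on low counts (adjusted p 0.0576), in 1 fit of all groups (0.203), with the replicate block (0.154) and with 6 libraries left out singly (0.0509 to 0.174).

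DESeq2 called 86 members at 1-cell. One fit of all 12 groups called 18 at 256-cell, 108 at dome, 108 at shield, 31 at bud and 13 at 24 hpf. Replicate numbers did not pair the libraries, since same-numbered libraries correlated at -0.12 to 0.11 in their deviations from the group means. With a replicate block, 7 were called at bud in place of 14, and the block moved no other count of calls by over 1.5 times (49, 74, 152, 66 and 19 at 1-cell, 256-cell, dome, shield and 24 hpf). Among named calls, those of ccna1, map1lc3c and fhdc3 at 1-cell, gtf2a1, ca15b, espl1, slbp2, tdrd7a and tdrd1 at dome, dnmt3b and patl2 at shield, gmnn, hsp90b1 and mettl4 at bud and hspa5 at 24 hpf were lost with the block (adjusted p 0.0612 to 0.154). Leaving out 1 library in turn gave 18 to 69 calls at 1-cell, 54 to 74 at 256-cell, 141 to 196 at dome, 34 to 67 at shield, 6 to 18 at bud and 15 to 21 at 24 hpf. The median log2 fold change was then -0.51 to -0.44 at dome and -0.46 to -0.32 at shield.

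The set held 1013 members with shield at most 50% of dome and 78 at 12.5%, 645 from 25 CPM and 176 from 100 CPM, 141 with TMM-scaled CPM and 204 with the rule met in both genotypes. Median differences at dome were -0.30 and -0.58 at the first pair of limits, -0.53 with TMM-scaled CPM, -0.25 with the rule on mutants and -0.35 in both genotypes. At shield they were -0.24 and -0.65 at those limits, -0.33 from 25 CPM, -0.63 on mutants and -0.59 in both. The share called lower was 28.7% at dome on mutants, and at shield 25.6% from 100 CPM, 9.55% from 25 CPM, 29.9% on mutants and 25.5% in both. The cause of these shifts was not tested. At shield many members had under 100 counts a library, and differences such as that of btg4 were not resolved.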
